A study of Mus musculus with 27 samples.

Results

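Ubiquitin is a small protein that cells attach to other proteins, often to mark them for the proteasome. An E1 enzyme activates it, an E2 conjugating enzyme carries it, an E3 ligase picks the substrate, and deubiquitinases take it off again. Many E3 ligases are built on a cullin scaffold, to which an adaptor brings the substrate. Several genes of this system lie on the X chromosome, where Xist, the long noncoding RNA that coats one X in cis, silences genes in female mammalian cells.

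The genes described here are 7 X-linked genes of this system, chosen by name. They are the deubiquitinases Usp9x, Usp11 and Brcc3, the cullin Cul4b, the BTB-Kelch ligase adaptors Klhl13 and Klhl15, and the E2 enzyme Ube2a. They are 7 of the 276 X-linked genes with allelic ratios in the series. All 7 were measured in one table of 270 genes and 17 libraries (the Spen table). A second table of 254 genes and 10 libraries (the CIZ1 table) held all of them but Ube2a. The tables share 4 libraries, with identical values.

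The study compared Xist-mediated silencing in mouse embryonic stem (ES) cell lines changed in factors that act with Xist. RNA bound to chromatin, which is rich in nascent transcripts, was sequenced in female cells of a cross between the strains 129S and Cast. The 2 parental genomes differ at many bases, so a read can be assigned to one allele. The value per gene and library is the 129S share of allele-assigned reads, called the ratio below: 0.5 means equal RNA from both X chromosomes and 1 means RNA from the 129S X alone.

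In each of the lines described, a TetOn promoter had taken the place of the Xist promoter on the 129S allele, and a Bgl stem-loop sequence sat at the 3' end of Xist. Doxycycline at 1.0 to 1.5 µg/mL therefore induces Xist from the 129S X, and a lower ratio means a smaller share of RNA from that X. The ratio alone does not separate less RNA from the 129S X and more from the Cast X, because no expression levels were given. The read depth behind each ratio is unknown. The parental line (WT) was sampled without doxycycline (0 h), after 3 h and after 24 h, with 2 libraries each, and once as neural precursor cells (NPC) at day 30. A CIZ1 knockout (CIZ1 KO; CIZ1 is a nuclear matrix protein that binds Xist RNA) was sampled at 0 h and 24 h with 2 libraries each and once as NPC at day 30. A line labelled SpenKO, called SpenRRM in the series text, had 2 libraries at 0 h, 1 at 3 h and 2 at 24 h. SPEN is a repressor that Xist RNA binds, and its SPOC domain contacts corepressors. A SPOC domain mutant (SPOCmut) was represented by 3 clones, C10, C2 and G1, each at 0 h and 24 h. The labels name several clones for SPOCmut only, so genotype and line cannot be told apart in the other lines. The labels of WT, CIZ1 KO and SpenKO also carry the word Halo beside Bgl, and those of SPOCmut carry neither word. WT is thus itself an engineered line and not an unmodified one. Any effect of the Halo component on the ratios was not tested. ES cells grew on feeders of mitomycin-inactivated mouse fibroblasts. The labels do not say if doxycycline was given to the NPC cultures.

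Over all X-linked genes the median ratio per library was 0.504 to 0.523 at 0 h in every line. At 24 h it was 0.291 and 0.305 in WT, 0.443 to 0.449 in SPOCmut and 0.503 and 0.506 in SpenKO in the Spen table, and 0.306 and 0.307 in CIZ1 KO in the CIZ1 table. Xist itself was at 0.933 or above in all 23 libraries. Spen and Ciz1 are not X-linked and the tables hold no values for them, so the genotypes were not checked. Of 14 X-linked genes fixed as fibroblast feeder genes, 9 were measured, with WT 0 h ratios of 0.403 to 0.585. Of these 9, 8 fell in WT and in CIZ1 KO at 24 h, beside 88.9% and 85.0% of all genes. In SPOCmut 5 fell, beside 49.6% of all genes, and in SpenKO 0, beside 0.741%. Levels of feeder RNA were not measured, and their part in the results below was not tested.

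The members are spread over the X (mm10) on the side of Xist (103460372 to 103483233) with the lower coordinates. Usp9x starts farthest away, at 13071497 to 13173327 on the plus strand, 90.4 Mb before Xist. Usp11 follows at 20703908 to 20720539 (plus strand), and Klhl13 at 23219270 to 23285428 (minus strand). Ube2a lies at 36874365 to 36884220 (plus strand) and Cul4b at 38531620 to 38576196 (minus strand), 66.6 and 64.9 Mb before Xist. Brcc3 lies at 75416627 to 75455701 (plus strand), 28.0 Mb away. Klhl15, at 94234929 to 94255968 on the plus strand, is the member nearest to Xist, 9.23 Mb before it. Spans are as the deposited table gives them and hold exons and introns. For Klhl13 and Klhl15 the gene length in the table, 145813 and 38587 bases, is above the printed span of 66159 and 21040 bases, so the counted region is wider than these coordinates show.

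The bases before the start site are shown for 3 members whose ratios followed different courses. Klhl15 fell by 3 h and fell in the SPOC mutant, and Cul4b changed most in WT at 24 h (-0.333). Brcc3 changed less there (-0.108) than Cul4b and Klhl15 (-0.264), though not the least of the members that fell. Sequences are RefSeq promoters of GRCm38.p6 (mm10), 250 bases upstream, read 5' to 3' on the gene's strand, with each CG dinucleotide in capitals. They are Klhl15 at chrX:94234680-94234929 (plus strand), Cul4b at chrX:38576197-38576446 (minus strand) and Brcc3 at chrX:75416378-75416627 (plus strand).
Klhl15: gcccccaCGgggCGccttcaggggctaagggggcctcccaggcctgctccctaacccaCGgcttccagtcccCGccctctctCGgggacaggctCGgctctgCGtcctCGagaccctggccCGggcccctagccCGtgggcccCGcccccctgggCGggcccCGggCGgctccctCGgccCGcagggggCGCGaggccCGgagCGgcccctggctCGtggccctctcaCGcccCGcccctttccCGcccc
Cul4b: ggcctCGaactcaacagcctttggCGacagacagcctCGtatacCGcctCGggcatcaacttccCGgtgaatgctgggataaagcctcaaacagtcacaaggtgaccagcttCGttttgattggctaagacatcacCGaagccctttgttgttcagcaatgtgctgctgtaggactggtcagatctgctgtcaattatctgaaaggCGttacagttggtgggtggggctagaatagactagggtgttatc
Brcc3: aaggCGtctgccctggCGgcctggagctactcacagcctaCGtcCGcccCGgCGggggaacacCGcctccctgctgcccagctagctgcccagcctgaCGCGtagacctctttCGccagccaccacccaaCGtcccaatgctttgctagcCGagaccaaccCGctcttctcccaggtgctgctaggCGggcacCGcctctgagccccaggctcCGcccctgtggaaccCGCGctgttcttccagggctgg

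The Klhl15 stretch holds 24 CG dinucleotides, that of Brcc3 18 and that of Cul4b 9. Over the 300-base window that adds 50 bases past the start, the median of 32851 mouse promoters is 7 CG, and that of 265 promoters of genes in the Spen table is 16. On the same window Klhl15 has 31, Brcc3 23, Ube2a 20, Cul4b 14 and Usp11 8. RefSeq lists 5 promoters for Klhl13, with 0 to 16 CG. Of the 7 members 6 matched an entry, and Usp9x is named only.

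A GC box, a YY1 core and a TATA box were searched on both strands of that window. The GC box GGGCGG, the core bound by Sp1 family factors, which itself contains a CG, occurs at Klhl15, Brcc3, Ube2a and 3 of the Klhl13 promoters. It is present in 35.7% of all mouse promoters and 60% of those of genes in the Spen table. The letters AAGATGGC, the core of the YY1 motif, occur at Usp11 alone among the 6 matched members, against 2.75% of all promoters and 6.04% of those in the table. The TATA box letters TATAAA were found at none of these promoters, against 13.6% of all promoters and 7.55% of those in the table. A match is a description of the letters only.

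After 24 h of Xist induction in WT, all 3 deubiquitinases, the cullin and both Kelch adaptors had a lower 129S share than at 0 h, while Ube2a stayed at 1. The changes differed widely in size, from -0.333 for Cul4b to -0.0792 for Klhl13. In all, 6 of 7 members fell at an adjusted p under 0.05 (limma, Benjamini-Hochberg over the 270 genes). Among all measured genes 88.9% fell, a share near that of the members. The median change of the members was -0.166, beside -0.197 for all 270 genes. That median counts Ube2a, with its change of 0. Among the 6 genes that fell, the middle changes were -0.223 (Usp11) and -0.166 (Usp9x), on either side of -0.197.

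**Figure D1:**
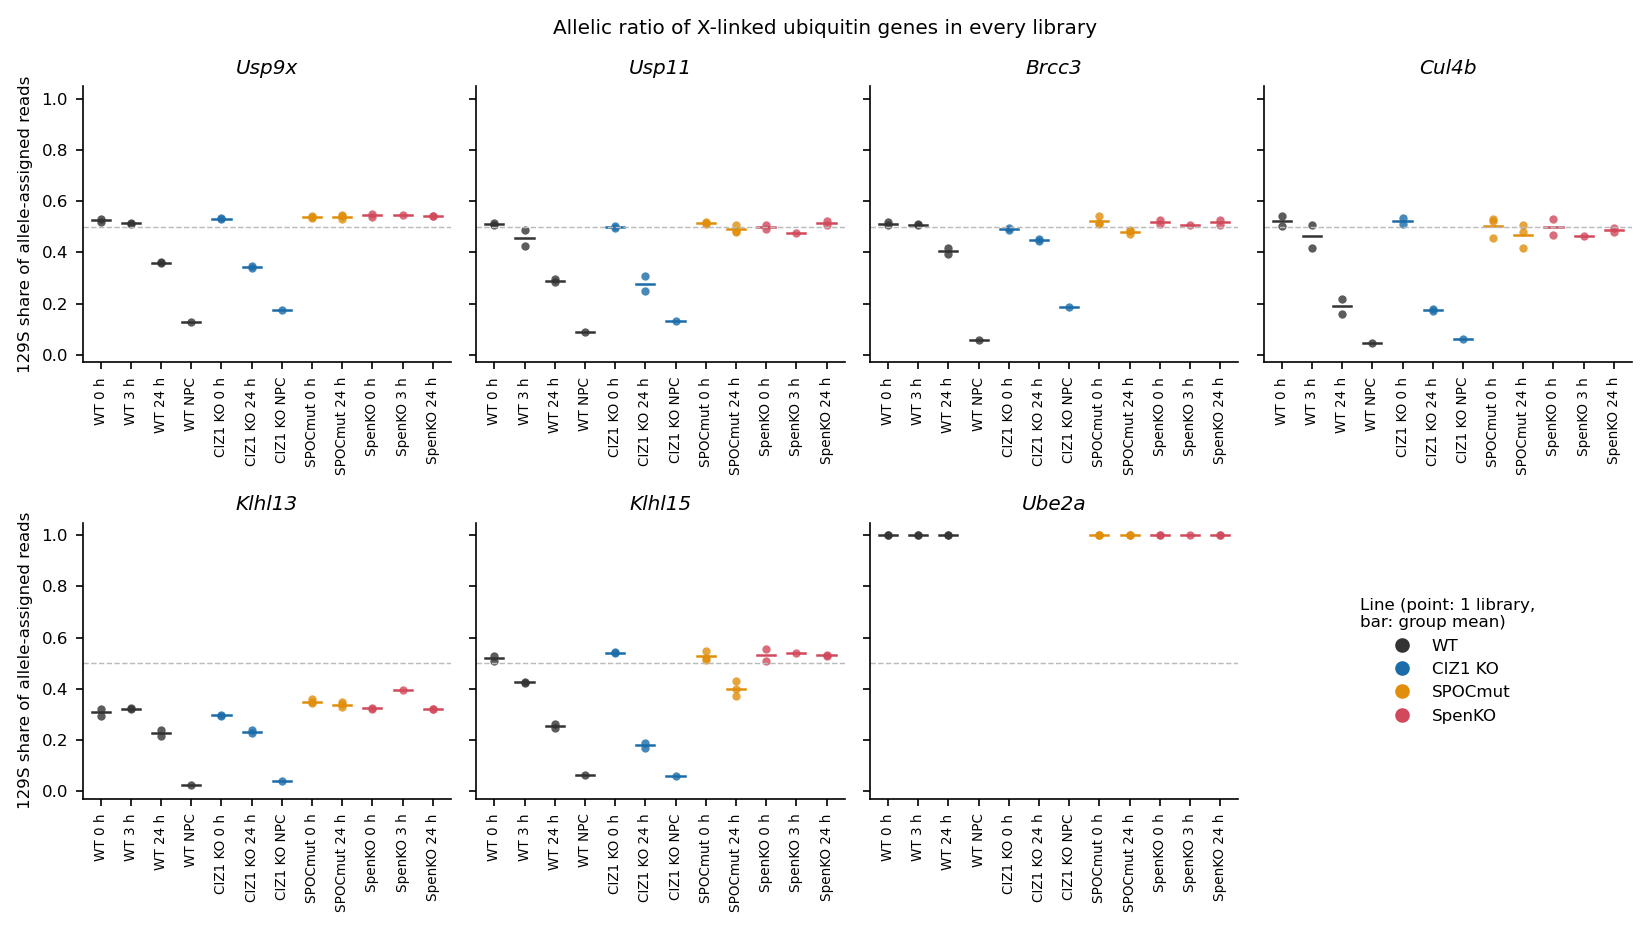
Ratio (129S share of allele-assigned reads, no unit) of each of the 7 genes in every library, by line and time; points are libraries, bars are group means, and the dashed line marks 0.5. The 6 genes other than Ube2a sit lower in WT at 24 h than at 0 h, and Ube2a is at 1 throughout.

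Usp9x removes ubiquitin from many substrates and is needed in early development. Its ratio was 0.521 and 0.530 in the 2 WT libraries at 0 h and 0.357 and 0.361 at 24 h. All 24 h libraries lay below all 0 h libraries, and replicates differed far less than the times. The change was -0.166 ± 0.00945 (SE, n = 2 against 2, limma adjusted p = 5.69e-08). The spread behind this p-value, as for the other members, came from all 17 libraries of the fit. With only the 4 libraries compared, limma adjusted p was 0.00308 for Usp9x. In that fit all 6 genes kept their calls, from 0.00237 (Usp11 and Klhl15) to 0.0288 (Klhl13).

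Usp11, a deubiquitinase with roles in DNA repair, read 0.515 and 0.509 at 0 h and 0.294 and 0.283 at 24 h. The groups did not overlap. It fell by 0.223 (SE 0.0185, limma adjusted p = 8.17e-07), at rank 107 of 270 counted from the gene that fell most.

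Brcc3 cuts lysine-63-linked ubiquitin chains as part of the BRCA1-A and BRISC complexes. It was at 0.518 and 0.508 at 0 h and at 0.393 and 0.416 at 24 h. The groups were apart, but both 24 h libraries were still above every 24 h library of Usp9x and Usp11. The change of -0.108 ± 0.0132 (SE, limma adjusted p = 1.64e-05) placed it at rank 226.

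Cul4b is the scaffold of the CRL4B ubiquitin ligases. It read 0.503 and 0.542 at 0 h and 0.220 and 0.158 at 24 h. These were the widest gaps between replicates among the members at these times, and still every 24 h library was far below every 0 h library. Cul4b changed most of the members, by -0.333 ± 0.0401 (SE, limma adjusted p = 1.53e-05), at rank 21 of 270.

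Klhl15 is an adaptor of CUL3 ligases. Its libraries were at 0.529 and 0.511 at 0 h and 0.263 and 0.249 at 24 h, without overlap. It fell by 0.264 (SE 0.0205, limma adjusted p = 4.87e-07), at rank 71 of 270.

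Klhl13, another CUL3 adaptor, known for its part in mitosis with Aurora B as a substrate, differed from the others before induction. Its WT 0 h libraries read 0.293 and 0.323, and their mean of 0.308 had rank 11 of 270 from the lowest. At 24 h it read 0.217 and 0.241. The groups were apart, and the change of -0.0792 ± 0.0127 (SE, limma adjusted p = 0.000138) came at rank 248.

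Because Klhl13 started lower, the 6 genes were also put on an odds scale, the 129S-to-Cast odds of each library as a percent of the mean 0 h odds of its line. In WT at 24 h the mean was 21.4% for Cul4b, 31.8% for Klhl15, 38.8% for Usp11, 50.7% for Usp9x, 64.6% for Brcc3 and 66.6% for Klhl13. The library ranges of Brcc3 (61.6 to 67.7%) and Klhl13 (62.1 to 71.2%) overlapped. Klhl13 was above Brcc3 in each of the 2 libraries, and the difference was not tested. Each other neighbouring pair in this order had separate ranges, from 2 libraries each.

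**Figure D2:**
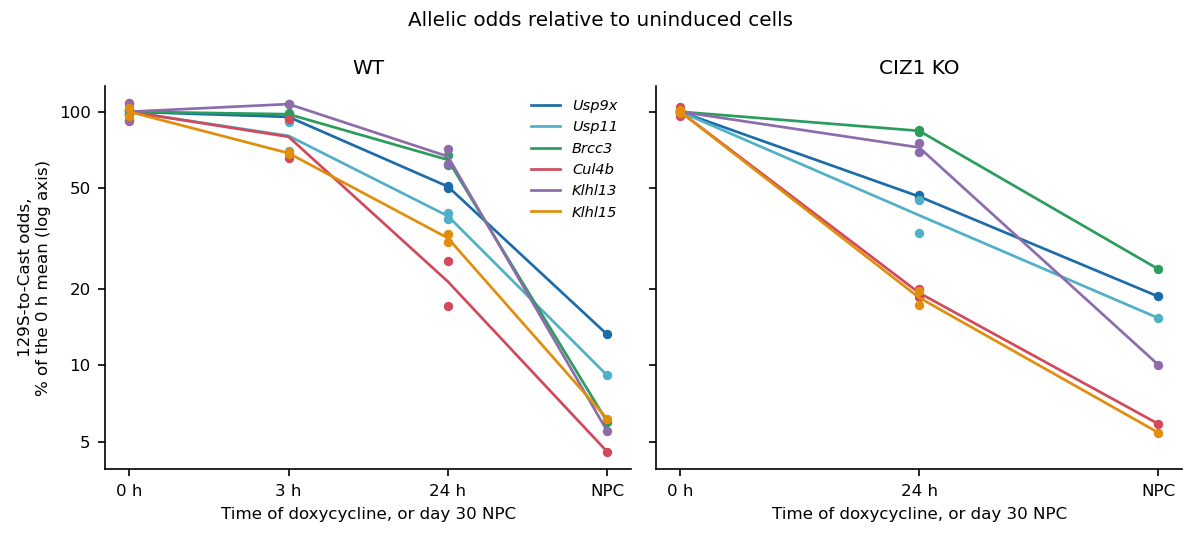
129S-to-Cast odds as a percent of the 0 h mean of the line (log axis) for the 6 genes with ratios below 1, at 0 h, 3 h, 24 h and in day 30 NPC for WT, and at 0 h, 24 h and NPC for CIZ1 KO; points are libraries and lines join means. In WT at 24 h the genes spread from 21.4% (Cul4b) to 66.6% (Klhl13), and in WT NPC all are between 4.56 and 13.2%.

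Ube2a, an E2 enzyme also known as RAD6A that works with E3 ligases such as RNF20 and RAD18, had a ratio of 1 in every one of the 17 libraries that measured it, in every line and at every time. Its change was 0 in each comparison, with no spread between libraries. Among the 270 genes, only Ube2a, Xist and C330007P06Rik were at 0.9 or above in every library. C330007P06Rik overlaps the 5' end of Ube2a on the opposite strand in GENCODE annotation of mm10, and it read 0.998 to 1, with 14 of 17 libraries at 1. The annotated C330007P06Rik ends at 36874111, before the deposited start of Ube2a at 36874365. The deposited length of Ube2a, 9856 bases, equals its span. These coordinates come from different sources and do not show which reads were counted. The strand setting of the authors' counting is not given in the sources used here. Why Ube2a read 1 was not tested. Upf3b, the next gene of the table, 217 kb further on, was at 0.524 in WT at 0 h and fell by 0.115 (SE 0.0252, limma adjusted p = 0.00137).

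At 3 h only Klhl15 had fallen among the 7 genes, against 17.0% of all genes that fell and 5.19% that rose. Klhl15 read 0.424 and 0.429, below both 0 h libraries (0.529 and 0.511). The change was -0.0934 ± 0.0205 (SE, limma adjusted p = 0.00703). This call was lost without WT 0 h replicate 1 (adjusted p = 0.0528) and when only the 4 libraries compared were fitted (adjusted p = 0.0652).

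Usp11 just missed the threshold at 3 h. Its libraries read 0.423 and 0.487, both below 0 h but uneven, and the change was -0.0565 ± 0.0185 (SE, limma adjusted p = 0.0504). Without WT 3 h replicate 2 the change was -0.0885 (limma adjusted p = 0.00502), and without replicate 1 it was -0.0244 (limma adjusted p = 0.356). In both fits only 1 library is left at 3 h, and the spread comes from the other groups. Cul4b was as uneven, at 0.419 and 0.506, the second of these inside its 0 h range, and changed by -0.0596 (limma adjusted p = 0.345). WT 3 h replicate 1 was the lower library for both genes.

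The remaining members were close to their 0 h values at 3 h. Usp9x read 0.517 and 0.510 (change -0.0117, limma adjusted p = 0.43), Brcc3 0.505 and 0.509 (-0.00562, 0.81), and Klhl13 0.323 and 0.324 (0.0153, 0.444). From 3 h to 24 h all 6 genes fell, with changes of -0.0945 (Klhl13) to -0.274 (Cul4b). Of all genes 85.6% fell and 0.370% rose over these hours. For Klhl15 the odds stood at 68.6% of 0 h at 3 h, below the means of 79.6 to 107% of the other 5, although 1 Cul4b library stood at 65.7%.

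In the SpenKO line none of the 7 genes changed after 24 h of doxycycline (limma), against 0.741% of all genes that fell. At an unadjusted p under 0.05, 0 members, and 18 lower and 1 higher of the 270 genes, would have counted. Usp9x read 0.550 and 0.540 at 0 h and 0.544 and 0.543 at 24 h. Klhl15 read 0.508 and 0.556, then 0.530 and 0.534. Cul4b read 0.532 and 0.469, then 0.493 and 0.479. In these 3 genes the 24 h libraries lay within the range of the 0 h libraries.

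Usp11, Brcc3 and Klhl13 stayed as close to their starting values. Usp11 read 0.507 and 0.490 at 0 h and 0.524 and 0.505 at 24 h, Brcc3 0.525 and 0.512, then 0.527 and 0.507. The times overlapped in both. Klhl13 read 0.323 and 0.324, then 0.321 and 0.323. The widest 95% interval of a change was that of Cul4b, -0.103 to 0.0747, and among the 6 genes below 1 the narrowest was that of Usp9x, -0.0226 to 0.0192. The response to doxycycline differed from WT for all 6 genes, as it did, higher, for 76.7% of all genes. The difference (SpenKO minus WT) ran from 0.0777 ± 0.0179 for Klhl13 (limma adjusted p = 0.00243) to 0.319 ± 0.0567 for Cul4b (limma adjusted p = 0.000475). For Klhl15 it was 0.264 ± 0.0290 (limma adjusted p = 1.6e-05).

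The single SpenKO library at 3 h gave values with no spread of their own. It read 0.546 for Usp9x, 0.477 for Usp11, 0.509 for Brcc3, 0.465 for Cul4b and 0.542 for Klhl15. Klhl13 was at 0.394 there, above its 0.323 and 0.324 at 0 h and 0.321 and 0.323 at 24 h, the highest Klhl13 value of all 23 libraries.

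In the SPOC mutant Klhl15 and Brcc3 were called lower after 24 h, 2 of 7 members, against 49.6% of all genes. The median change of the members, which counts Ube2a at 0, was -0.0251, beside -0.0658 for all 270 genes. Without Ube2a the middle changes were -0.0365 (Cul4b) and -0.0251 (Usp11). Usp9x, Usp11, Cul4b and Klhl13 did not pass the test.

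Klhl15 read 0.547, 0.512 and 0.522 in clones C10, C2 and G1 at 0 h and 0.400, 0.371 and 0.430 at 24 h. Each clone was lower at 24 h, and the groups were well apart. It fell by 0.126 (SE 0.0167, n = 3 against 3, limma adjusted p = 0.000105), with clone changes of -0.146, -0.141 and -0.0918.

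Brcc3 read 0.514, 0.541 and 0.513 at 0 h and 0.488, 0.482 and 0.474 at 24 h in the same clones. All 3 clones were lower, without overlap of the groups, though by little. The change was -0.0415 ± 0.0107 (SE, limma adjusted p = 0.00771).

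Cul4b, which changed most in WT, varied among the clones. It read 0.523, 0.458 and 0.531 at 0 h and 0.415, 0.479 and 0.509 at 24 h in C10, C2 and G1. Clone C10 changed by -0.108, G1 by -0.0225 and C2 by 0.0206, so the clones moved in both directions and the groups overlapped. The change was -0.0365 ± 0.0327 (SE, limma adjusted p = 0.366).

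The other deubiquitinases had no called change in this line. Usp9x read 0.542, 0.537 and 0.535 at 0 h and 0.548, 0.543 and 0.529 at 24 h, with overlap and a change of 0.00188 (95% interval -0.0152 to 0.0189). Usp11 read 0.512, 0.513 and 0.519, then 0.479, 0.482 and 0.508. The groups did not overlap and all 3 clones were lower at 24 h (-0.0331, -0.0311 and -0.0109), but the change of -0.0251 missed the threshold (limma adjusted p = 0.193). Klhl13 read 0.361, 0.343 and 0.348, then 0.347, 0.329 and 0.340. The groups overlapped, although each clone was lower at 24 h (-0.0138, -0.0148 and -0.00752), and the change was -0.0120 (limma adjusted p = 0.35).

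The response differed from WT for 6 members (SPOCmut minus WT), each higher, as for 58.5% of all genes. It ran from 0.0667 ± 0.0170 for Brcc3 (limma adjusted p = 0.00596) and 0.0671 for Klhl13 to 0.297 ± 0.0518 for Cul4b (limma adjusted p = 0.000631). Usp9x differed by 0.168, Usp11 by 0.198 and Klhl15 by 0.138 (limma adjusted p = 1.52e-06, 6.62e-05 and 0.00121). Between the mutant lines, 1 member differed in its response, against 23.0% of all genes that were lower in SPOCmut. This was Klhl15, by -0.126 ± 0.0265 (SPOCmut minus SpenKO, limma adjusted p = 0.00681). For Brcc3 that difference was -0.0399 (95% interval -0.0775 to -0.00237, limma adjusted p = 0.118). The comparisons of SpenKO and SPOCmut with WT share the WT libraries. When a change of at least 0.05 was required, the differences from WT of Klhl13 in SpenKO (limma adjusted p = 0.103) and of Brcc3 and Klhl13 in SPOCmut (0.275 and 0.256), and that of Klhl15 between the mutant lines (0.0757), lost their calls.

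**Figure D3:**
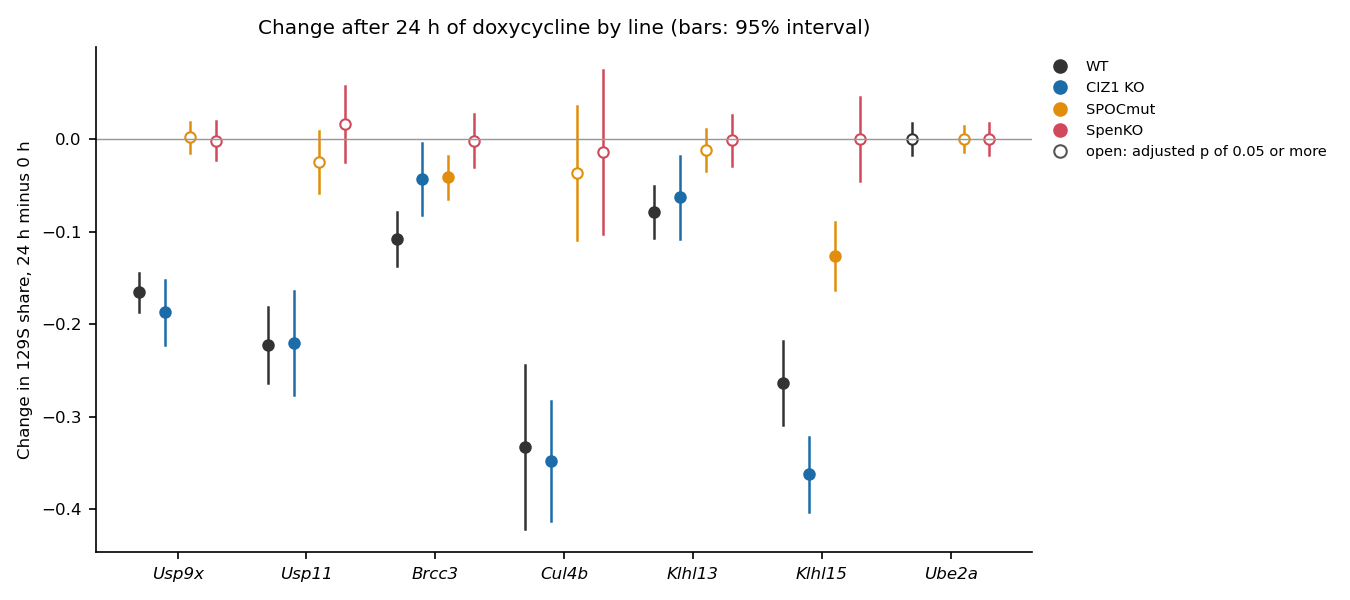
Change in the 129S share (24 h minus 0 h) of each gene in WT, CIZ1 KO, SPOCmut and SpenKO; points are limma estimates, bars 95% intervals, and open points have an adjusted p of 0.05 or more. WT and CIZ1 KO lie below 0 for the 6 genes, the SpenKO intervals include 0, and SPOCmut is filled for Klhl15 and Brcc3. Ube2a has no CIZ1 KO value.

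In the CIZ1 knockout the 6 members measured all fell after 24 h, as did 85.0% of the 254 genes. Their median change, which has no Ube2a in it, was -0.204, beside -0.207 for all genes. Klhl15 read 0.539 and 0.545 at 0 h and 0.170 and 0.189 at 24 h. The groups were far apart, and Klhl15 changed most of the members here, by -0.363 ± 0.0163 (SE, n = 2 against 2, limma adjusted p = 7.72e-05), at rank 14 of 254.

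Cul4b went from 0.513 and 0.533 to 0.179 and 0.170 and fell by 0.348 (SE 0.0263, limma adjusted p = 0.000127). Usp11 went from 0.503 and 0.494 to 0.248 and 0.308 and fell by 0.220 (SE 0.0229, limma adjusted p = 0.0003). Usp9x went from 0.532 and 0.533 to 0.341 and 0.349 and fell by 0.187 (SE 0.0143, limma adjusted p = 0.000127). In each of these genes the times did not overlap, and the 24 h libraries of Usp11 were the most uneven.

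The smallest changes were those of Klhl13 and Brcc3. Klhl13 read 0.295 and 0.298, then 0.227 and 0.240 (-0.0631 ± 0.0182 SE, limma adjusted p = 0.0182). Brcc3 read 0.489 and 0.496, then 0.446 and 0.452 (-0.0432 ± 0.0158 SE, limma adjusted p = 0.0414). Both had separate groups, yet these calls rested on few libraries. That of Brcc3 was lost whichever of the 4 libraries was left out (adjusted p 0.0862 to 0.130) and in the replicate block fit (adjusted p = 0.0961). That of Klhl13 was lost without CIZ1 KO 0 h replicate 1 (0.0539), 0 h replicate 2 (0.0624) or 24 h replicate 1 (0.0807).

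No member's response differed between CIZ1 KO and WT (limma), nor did that of any of the 254 genes (0% called). At an unadjusted p under 0.05, 1 member was lower and 1 higher, beside 4 lower and 7 higher of all genes. The lower one was Klhl15, at -0.0987 ± 0.0230 (CIZ1 KO minus WT, adjusted p = 0.477, limma), with 24 h libraries of 0.170 and 0.189 beside 0.263 and 0.249 in WT. The higher one was Brcc3, at 0.0650 ± 0.0223 (adjusted p = 0.851, limma), with 24 h libraries of 0.446 and 0.452 beside 0.393 and 0.416 in WT. Both genes were picked by their unadjusted p, so the gap between their 24 h libraries adds no support. Their 0 h libraries were apart too. Klhl15 read 0.539 and 0.545 in CIZ1 KO and 0.529 and 0.511 in WT. Brcc3 read 0.489 and 0.496 in CIZ1 KO and 0.518 and 0.508 in WT. The test over all genes did not separate the lines. The 95% intervals of the other 4 differences all included 0, the widest being that of Cul4b (-0.107 to 0.0767).

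In day 30 NPC, with 1 library per line and no test, the ratios were lower than in any ES library of these lines. WT NPC read 0.128 for Usp9x, 0.0873 for Usp11, 0.0593 for Brcc3, 0.0476 for Cul4b, 0.0239 for Klhl13 and 0.0625 for Klhl15. CIZ1 KO NPC read 0.175, 0.132, 0.188, 0.0606, 0.0407 and 0.0603 in the same order. Of these 6 genes, 5 were higher in the CIZ1 KO library, as were 60.2% of the 254 genes, with median ratios of 0.0546 (WT) and 0.0830 (CIZ1 KO) over all genes.

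Brcc3 had the widest gap between the NPC libraries, 0.129. On the odds scale Usp9x kept the most in the WT NPC library (13.2% of 0 h) and Cul4b the least (4.56%), while Klhl13 and Brcc3, which kept the most in WT at 24 h, stood at 5.50% and 5.99%. In the CIZ1 KO NPC library Brcc3 kept the most (24.0%) and Klhl15 the least (5.43%), as in CIZ1 KO at 24 h (84.1% and 18.5%). Cul4b was close to Klhl15, at 5.88% in NPC. Its CIZ1 KO 24 h range (18.7 to 19.9%) overlapped that of Klhl15 (17.3 to 19.6%), so the lowest place is not settled. Klhl13, second at 24 h in CIZ1 KO (72.3%), stood at 10.1% in NPC, below Usp9x (18.7%) and Usp11 (15.4%).

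Before induction, no member differed between lines (limma), and none of the genes did in any of the 3 comparisons with WT (0% called in each). Klhl13 was low in every line, with 0 h means of 0.308 in WT, 0.323 in SpenKO, 0.351 in SPOCmut and 0.297 in CIZ1 KO. Its 3 SPOCmut libraries (0.343 to 0.361) were above both WT libraries (0.293 and 0.323), a difference of 0.0428 (adjusted p = 0.193, limma). The other 5 genes below 1 had 0 h means of 0.492 to 0.545 in every line.

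**Figure D4:**
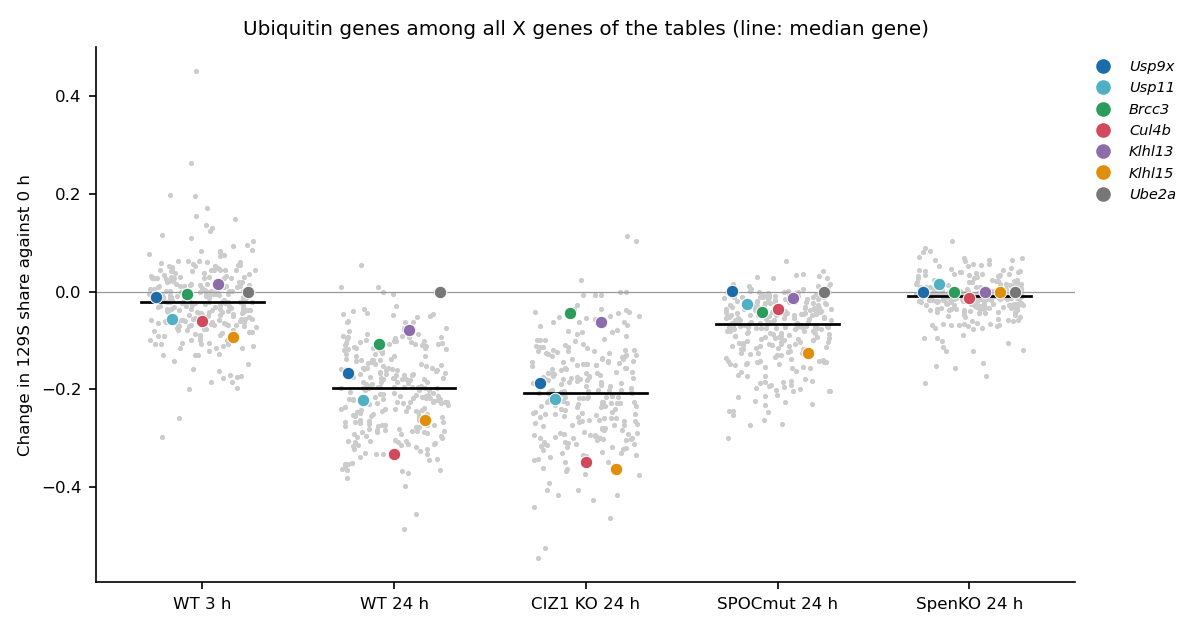
Change in the 129S share of every X-linked gene (grey points) in WT at 3 h and 24 h and in CIZ1 KO, SPOCmut and SpenKO at 24 h, each against 0 h, with the members in colour and the median of all genes as a black bar. In WT at 24 h the members run from Cul4b (-0.333) to Ube2a (0) around the median of -0.197.

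The genes whose ratios lay closest to each member over the 17 libraries were ranked by root mean square difference. They were Pola1 and Med14 for Usp9x (0.0145 and 0.0208), Lamp2 for Usp11 (0.0234), and Idh3g and Maoa for Brcc3 (0.0136 and 0.0217). For Cul4b they were Gpc3 and Mcf2 (0.0357 and 0.0398), for Klhl15 Pdk3 and Kif4 (0.0226 and 0.0264), and for Klhl13 Las1l and Usp26 (0.0487 and 0.0554). Ube2a was closest to C330007P06Rik and Xist. Klhl13 had the least close partners of the 6 genes below 1. In WT at 24 h the partners changed by -0.186 (Pola1), -0.167 (Med14), -0.198 (Lamp2), -0.105 (Idh3g), -0.143 (Maoa), -0.287 (Gpc3), -0.286 (Mcf2), -0.274 (Pdk3), -0.220 (Kif4), -0.140 (Las1l) and -0.149 (Usp26). These 17 libraries share lines and times, and ranking by Pearson r instead put other genes first for each of the 6 (for example Bcap31 for Usp9x and Tex11 for Klhl15).

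Neighbouring genes of the table did not share one size of change. Beside Klhl15 (-0.264 in WT at 24 h), Eif2s3x, whose start lies 46.2 kb before it, changed by -0.0804 ± 0.0163 (SE) and Apoo on the other side by -0.171. Beside Cul4b (-0.333), Lamp2 changed by -0.198 and Gria3 by -0.305, with starts 130 and 2870 kb from that of Cul4b. Usp9x (-0.166) lay between 5730405O15Rik (-0.221) and Ddx3x (-0.156), and Usp11 (-0.223) between Cdk16 (-0.161) and Araf (-0.0951). Brcc3 (-0.108) lay between Mtcp1 (-0.170) and Vbp1 (-0.0922). Klhl13 (-0.0792) lay between Gm6938 (-0.138) and Wdr44 (-0.210), whose starts are 1907 and 474 kb from its own. All these neighbours fell at an adjusted p under 0.05 (limma). Klhl15, Cul4b and Usp11 each had a larger change than both of their neighbours and Klhl13 a smaller one than both of its own, differences that were not tested.

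A list of 23 further X-linked ubiquitin genes had 5 in the Spen table that matched by symbol. All 5 fell in WT at 24 h (median change -0.157, beside -0.197 for all genes, of which 88.9% fell). Ubl4a of the list is present under its older symbol Ubl4 and was missed by this match. Ubl4 changed by -0.244 in WT and -0.208 in CIZ1 KO at 24 h. The median and the counts in this paragraph leave it out, so the gap between the medians holds for the 5 matched genes only. Pja1, a RING E3 ligase, fell by 0.487 (SE 0.110), the most of all 270 genes. Xiap, an inhibitor of caspases with a RING domain, fell by 0.240 (SE 0.0272). The deubiquitinases Otud5 and Usp26 changed by -0.157 (SE 0.0237) and -0.149 (SE 0.0134), and Uba1, the main E1 enzyme, by -0.125 (SE 0.0187). Pja1 had the largest error of the 5. At 3 h 0 of 5 had changed (17.0% of all genes fell), in SpenKO 0 of 5 (0.741%), and in SPOCmut 1 of 5 (49.6%), Usp26 (-0.0480 ± 0.0110 SE, limma adjusted p = 0.00389). In CIZ1 KO 4 of 4 measured fell, with changes of -0.113 to -0.223, as did 85.0% of all genes. The response differed from WT for 5 of 5 in SpenKO (76.7% of all genes) and 5 of 5 in SPOCmut (58.5%), for 0 of 5 between SPOCmut and SpenKO (23.0%), and for 0 of 4 between CIZ1 KO and WT (0%).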

How the data were processed

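Chromatin-associated RNA went into stranded libraries (TruSeq), per the labels' protocols. What the authors deposited is, for each gene in each library, the fraction (0 to 1) of allele-assigned reads from one allele. The submitters' processing notes name mm10 and, with no roles, STAR 2.4.2a, Bowtie2 2.3.2, SAMtools, featureCounts, edgeR and bedtools. How genes were filtered and counted by strand is not given in the sources used here. The allele of the numerator is not named either. It is read as 129S because Xist, inducible on 129S, lies near 1. A column name with Dox but no time was read as 24 h. Read counts were not used here, so the depth of each ratio is unknown and no counting interval is given. The 4 samples of a chromosome 15 Xist transgene, and 12 columns of a chromosome 15 table, are not analysed here.

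Ratios were fitted with limma 3.58.1 in R 4.3.3, 1 fit per table over its libraries, without the replicate block, and p-values were adjusted over its genes (Benjamini-Hochberg), with calls at an adjusted p below 0.05. Line differences were interaction contrasts. The fit was tested on simulated data. The SPOCmut clones pair 0 h and 24 h libraries of the same line: deviations from the group means correlated across genes by -0.0170, -0.113 and 0.148. For the rest, nothing says that replicates were separate cultures, so p-values measure the spread between libraries, which may be technical. No 2 libraries of a group shared over 1.11% of exactly equal values.

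All 7 members were named, with the 2 closest genes and the nearest gene on each side. One of the closest genes is not reported here. Members and lists were chosen with earlier results of these data known. Alternatives were a logit scale (ratios held to 0.005 to 0.995), only the libraries compared, the replicate block, and a mean-variance trend with robust variance. Others were Benjamini-Yekutieli adjustment, a minimum change of 0.05, leaving out each library, and Pearson r for likeness. A last one kept genes with a mean ratio of 0.2 to 0.8 over the 0 h libraries of all lines in the table.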

Additional observations from a re-analysis of the deposited data

Results flagged for a closer look

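The response to 24 h of doxycycline differed between lines for 6 genes, by the interaction test in limma over all genes of the Spen table. So it did for many other genes: 76.7% of all genes differed for SpenKO against WT, 58.5% for SPOCmut against WT and 23.0% for SPOCmut against SpenKO. It was smaller in SpenKO than in WT (difference in the change of the ratio, SpenKO minus WT) by 0.164 for Usp9x, 0.239 for Usp11, 0.107 for Brcc3, 0.319 for Cul4b, 0.0777 for Klhl13 and 0.264 for Klhl15. In SPOCmut the same difference from WT was 0.168 for Usp9x, 0.198 for Usp11, 0.0667 for Brcc3, 0.297 for Cul4b, 0.0671 for Klhl13 and 0.138 for Klhl15. These comparisons share the WT libraries. SPOCmut and SpenKO differed from each other for Klhl15 only among the 7 genes, by -0.126 (SPOCmut minus SpenKO), and its ratio was lower at 24 h than at 0 h in each of the 3 SPOCmut clones. Groups held 2 or 3 libraries, so no gene was examined for a single library far from its group.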

How the results depend on the processing

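Of 978 values of a member under an alternative, 927 kept their direction and their side of the threshold, 21 lost and 2 gained the call, and 28 changed sign. No called change reversed. Members called at 3 h in WT went from 1 to 0 with only the libraries compared or a minimum change of 0.05, to 2 with the trend, and lay between 0 and 2 with a library left out. The minimum change left 1 of 2 in SPOCmut, 0 of 1 between SPOCmut and SpenKO, 5 of 6 for SpenKO against WT, 4 of 6 for SPOCmut against WT and 4 of 6 in CIZ1 KO, where Benjamini-Yekutieli adjustment also left 4.

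Changes that reversed were uncalled and near 0. With each library left out in turn, the 24 h change in SpenKO ranged from -0.00653 to 0.00311 for Usp9x, -0.0116 to 0.00844 for Brcc3, -0.0455 to 0.0175 for Cul4b and -0.0241 to 0.0236 for Klhl15. In SPOCmut that of Usp9x ranged from -0.00185 to 0.00722. The response difference of SPOCmut and SpenKO ranged from -0.00123 to 0.00894 for Usp9x and -0.0540 to 0.00902 for Cul4b, and that of CIZ1 KO and WT from -0.0278 to 0.0329 for Usp11 (-0.00465 on the logit scale) and -0.0458 to 0.0159 for Cul4b. The 0 h difference from WT ranged, in SpenKO, from -0.000719 to 0.0125 (Brcc3), -0.0533 to 0.00966 (Cul4b) and -0.0114 to 0.0363 (Klhl15), in SPOCmut from -0.0375 to 0.00507 (Cul4b) and -0.00312 to 0.0158 (Klhl15), and in CIZ1 KO from -0.0186 to 0.0206 (Cul4b) and -0.0263 to 0.00351 (Klhl13).

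Of counts of all genes called, that of WT at 3 h went from 60 to 2 with only the libraries compared, 38 with Benjamini-Yekutieli adjustment and 19 with the minimum change. In SpenKO 2 became 0 with only the libraries compared, the replicate block, Benjamini-Yekutieli adjustment, the minimum change, or without SpenKO 0 h replicate 2 or either 24 h library. In SPOCmut 134 became 68 with the minimum change. Between SPOCmut and SpenKO 62 became 34 with Benjamini-Yekutieli adjustment, 20 with the minimum change and 41 without SpenKO 24 h replicate 1. Without CIZ1 KO 0 h replicate 1, 0 became 2 for the response and 4 for the 0 h level. The causes were not tested.

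The replicate block changed 1 call among the members, Brcc3 in CIZ1 KO (-0.0432, limma adjusted p = 0.0961). Outside SPOCmut the libraries share only a number: same-numbered libraries correlated in their deviations by 0.101 (WT 0 h and 24 h), -0.0883 (0 h and 3 h), 0.161 (3 h and 24 h), 0.112 (SpenKO) and -0.107 (CIZ1 KO). Depth is unknown and 2 libraries a group limit what can be seen.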
